A study of Mus musculus with 27 samples.

Results

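Ces1d, Hrasls and 2210407C18Rik are genes of the mouse heart with little RNA at birth and much more by 4 weeks of age. They are 3 of the 22855 genes counted in this series and were chosen by their rise in whole heart between these ages, the largest among protein-coding genes that passed an adjusted p of 0.05, did not overlap between the ages and reached a mean CPM (a gene's counts scaled to a common library total) of 10 at one of them. Since that rise chose the genes, it is described here and not tested. The study measured gene expression by RNA-Seq in whole hearts and in cardiac fibroblasts that were sorted by flow cytometry for PDGFRα, and asked what differs with age in each. Whole hearts of C57Bl/6 mice were sequenced on postnatal day 1 and at ages of 4 weeks, 14 weeks, 1 year and, for the oldest animals, 1.5 years, with 3 samples at each of the 5 ages. Fibroblasts of the same strain and ages came with 3 samples at postnatal day 1 and at 4 weeks and 2 at each later age. No allele or treatment is named in the sample labels, and the sex of the animals is not given.

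Around birth the heart changes its fuel from glucose and lactate to fatty acids, and it exchanges fetal isoforms of muscle proteins for adult ones. Ces1d encodes carboxylesterase 1D, also known as triacylglycerol hydrolase, an enzyme of the endoplasmic reticulum that releases fatty acids from stored fat and cleaves many ester drugs; it is best known from liver and fat tissue. Hrasls, which RefSeq calls Plaat1, encodes an acyltransferase and phospholipase of the PLAAT family, which moves acyl chains between phospholipids and can make the precursors of N-acylethanolamines. The gene 2210407C18Rik is annotated as protein-coding and has no name that describes a function.

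All 3 genes lie at separate places in the genome (mm10, which is GRCm38, with GENCODE M21 genes). Ces1d (ENSMUSG00000056973.6) is on the minus strand at chr8:93166068-93197838, and its full-length transcript has 14 exons. It stands in a cluster of carboxylesterase genes, with Ces1e 3380 bases to one side and Ces1c 34785 bases to the other, and the unclassified gene Gm45909 overlaps it on the same strand. Hrasls (ENSMUSG00000022525.13) is on the plus strand at chr16:29209695-29230531, and the nearest gene, Atp13a5 on the opposite strand, is 1320 bases away. The third gene, 2210407C18Rik (ENSMUSG00000037145.14), is on the minus strand at chr11:58608204-58616075, between the olfactory receptor genes Olfr324 and Olfr323. Reads of 65 bases can be placed on these genes almost without ambiguity. Of 1940 such windows along the Ces1d transcript, 2 were shared with another gene (Ces1b), which is 0.103%, and no window of the transcripts of Hrasls (2852 windows) or 2210407C18Rik (934 windows) was shared.

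RefSeq promoter windows (GRCm38.p6) were found for 2 of the 3 genes. They are shown because the genes were chosen by the same rise after birth, and shared control was not tested. Only the 250 bases before each start site are printed, 5′ to 3′. Capitals mark the letters of any motif that was searched for. The first window is that of 2210407C18Rik (minus strand, chr11:58613493-58613742), and the other two precede both annotated start sites of Hrasls (plus strand, chr16:29209445-29209694 for the upstream site and chr16:29209858-29210107 for the downstream one). The 2210407C18Rik window precedes a start site inside the span of the gene, at 58613492. A longer GENCODE transcript of this gene starts at 58616075, and no window was found for that start.
2210407C18Rik: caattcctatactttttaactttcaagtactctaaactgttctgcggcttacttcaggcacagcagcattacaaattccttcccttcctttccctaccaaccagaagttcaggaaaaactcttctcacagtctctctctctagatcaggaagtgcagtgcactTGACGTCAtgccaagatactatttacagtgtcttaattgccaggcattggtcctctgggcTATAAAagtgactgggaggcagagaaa
Hrasls upstream site: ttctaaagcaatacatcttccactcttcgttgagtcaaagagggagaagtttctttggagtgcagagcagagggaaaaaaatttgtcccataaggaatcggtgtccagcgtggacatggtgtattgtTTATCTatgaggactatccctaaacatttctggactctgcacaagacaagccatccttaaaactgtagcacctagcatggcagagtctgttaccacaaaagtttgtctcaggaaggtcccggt
Hrasls downstream site: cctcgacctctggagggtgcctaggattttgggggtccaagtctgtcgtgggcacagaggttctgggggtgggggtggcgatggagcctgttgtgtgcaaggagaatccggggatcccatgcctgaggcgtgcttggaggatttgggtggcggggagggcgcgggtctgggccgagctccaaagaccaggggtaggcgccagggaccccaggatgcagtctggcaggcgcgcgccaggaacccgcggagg
The windows differed in base composition. The 2210407C18Rik window was 43.2% G or C with 2 CpG pairs, and the upstream Hrasls window was 44.0% with 4, whereas the downstream Hrasls window was 67.2% with 15. The median over all 32851 RefSeq windows was 52.4% with 6 CpG pairs. The windows were searched on both strands for 6 motifs, and no matches overlapped one another. The motifs were TATAAA (in 12.4% of all windows), AGGTCA (14.0%), GGGCGG (32.7%), AGATAA (9.99%), CACGTG (6.02%) and TGACGTCA (1.55%). The 2210407C18Rik window held TATAAA, the TATA box letters, from 27 to 22 bases before the start site, and TGACGTCA, the letters of a cyclic AMP response element, from 87 to 80 bases before it. The upstream Hrasls window held AGATAA on the opposite strand, from 123 to 118 bases before its start site, and the downstream window held none of the motifs. A match of letters is a description and not a binding site.

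The hearts and the sorted cells matched their labels by cardiomyocyte and fibroblast markers, while the sorted samples also held markers of other cells. The summed level of 8 cardiomyocyte markers was between 43251 and 115730 CPM in whole hearts and between 15.4 and 690.2 CPM in fibroblasts. For 7 fibroblast markers it was between 29707 and 65907 CPM in fibroblasts and between 1565 and 3621 CPM in whole hearts. Total counts ranged from 46091271 to 67984404 in whole hearts and from 54615898 to 76758831 in fibroblasts, so that a level of 3 counts, the limit of detection used here, was between 0.0322 and 0.0903 CPM. All levels below are CPM on library sizes scaled together by the TMM method.

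In whole heart the 3 genes started from different levels on postnatal day 1, with Ces1d above the limit of detection in every heart and 2210407C18Rik below it in every heart. Ces1d was at 1.77, 0.781 and 0.880 CPM in the 3 hearts of postnatal day 1 and at 94.1, 114 and 74.6 CPM in those of 4 weeks, and the ratio of the means was 82.5. Hrasls was at 0.0245, 0.367 and 0.630 CPM on postnatal day 1, where the lowest heart had 2 counts, and at 27.1, 15.6 and 26.8 CPM at 4 weeks, a ratio of 68.0. For 2210407C18Rik the hearts of postnatal day 1 held 0, 0 and 1 count, whereas those of 4 weeks were at 14.5, 3.49 and 24.5 CPM, which is at least 397-fold higher when 3 counts per library stand in for the first age. The ages did not overlap for any of the 3, which the choice of the genes fixed; 39.1% of the 17995 genes tested in whole heart did not overlap between these ages, 12.1% were called higher and 6.1% lower. In whole tissue, more cells of a type and more RNA per cell cannot be told apart.

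**Figure D1:**
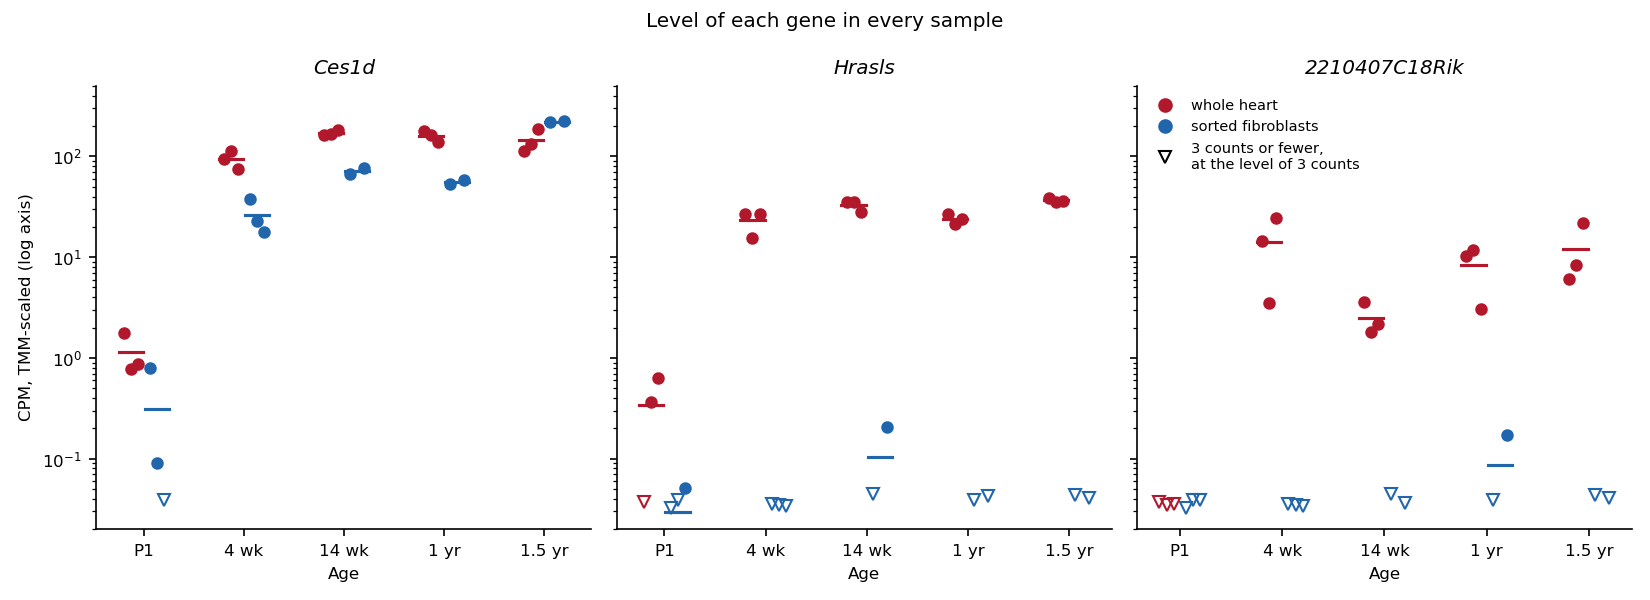
Level of Ces1d, Hrasls and 2210407C18Rik in every sample by age, in CPM on a log axis, with whole hearts in red, sorted fibroblasts in blue and lines at the group means; open triangles stand at the level of 3 counts for samples with 3 counts or fewer. All 3 genes are high in whole heart from 4 weeks on, and among the fibroblasts Ces1d alone reaches a comparable level.

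The next genes in the same ranking were close behind. Hrasls was the last gene inside the choice, with a fitted log2 fold change of 6.09, and the first outside it was Mgl2, a lectin of macrophages, with 5.91. Mgl2 went from a mean of 0.269 CPM on postnatal day 1 to 15.8 CPM at 4 weeks. It was followed by Arhgap20, which encodes a GTPase activating protein (0.668 to 38.0 CPM, a log2 fold change of 5.84), and by H2-Q6, a nonclassical class I histocompatibility gene (0.404 to 20.7 CPM, 5.70).

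Summed markers of other cell types also moved between these ages in whole heart. All 6 macrophage markers passed the test upward (median log2 fold change 2.13), their summed level going from between 66.6 and 78.7 CPM to between 372.7 and 466.7 CPM. Of 8 cardiomyocyte markers 6 were called higher (median 0.66), and of 6 endothelial markers 3 (median 0.47), beside 12.1% of all genes. Of 7 fibroblast markers 3 were called higher and 2 lower (median 0.51), beside 6.1% of all genes lower. Their summed level went from between 1565 and 1851 CPM to between 2530 and 3569 CPM. Of 5 smooth muscle and pericyte markers 2 were called higher and 2 lower. None of 4 mesothelial markers was called (median -1.10). With library size as the only scaling, 2 cardiomyocyte markers (median 0.15) and 1 endothelial marker (median -0.05) were called higher, and all 6 macrophage markers. The fibroblast list then had 2 higher and 3 lower. The fat cell markers with a row were Adipoq, Car3 and Cidea, and none of them was called. Adipoq, which defines fat cells, was at most 2.21 CPM in any heart, while Cidea was between 16.2 and 49.8 CPM in all of them. The part of cell composition in the rise of the 3 genes was not tested. Xist was at least 7.13 CPM and Ddx3y at least 1.80 CPM in every heart of both ages.

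After 4 weeks the genes took different courses in whole heart. The hearts of 4 weeks also differed from later ones in sex-linked genes, with Xist between 7.13 and 155 CPM and Ddx3y between 1.80 and 37.1 CPM. Xist was at most 0.451 CPM at 14 weeks and 0.641 CPM at 1 year. Ddx3y was at least 39.1 and 77.2 CPM at these ages and at most 0.454 CPM at 1.5 years. Age and sex cannot be told apart between 4 weeks and the later ages. Ces1d stood at 163, 168 and 183 CPM at 14 weeks, at 178, 163 and 139 CPM at 1 year and at 114, 134 and 187 CPM at 1.5 years. These 3 ages overlapped one another, and the hearts of 14 weeks and of 1 year all lay above those of 4 weeks. The share of all genes without overlap was not computed for these pairs. In whole heart it was 31.4% between 14 weeks and 1.5 years and 39.1% between postnatal day 1 and 4 weeks. By group mean the order was 14 weeks (171 ± 10.5), 1 year (160.3 ± 19.8), 1.5 years (145 ± 38.0), 4 weeks (94.2 ± 19.7) and postnatal day 1 (1.14 ± 0.543; mean ± SD in CPM, n = 3), and only the step to postnatal day 1 was without overlap between neighbours.

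Hrasls was at 35.0, 34.9 and 28.1 CPM at 14 weeks, at 27.1, 21.2 and 23.8 CPM at 1 year and at 38.7, 35.6 and 36.1 CPM at 1.5 years. The highest group by mean was 1.5 years (36.8 ± 1.67). Its lowest heart, at 35.6 CPM, lay next to the highest of 14 weeks, at 35.0 CPM, and with library totals that leave out mitochondrial genes these ages overlapped (34.5 to 43.8 and 30.8 to 39.2 CPM). Of all genes 31.4% did not overlap between these ages. Below 1.5 years came 14 weeks (32.7 ± 3.93), then 1 year (24.0 ± 2.94) and 4 weeks (23.2 ± 6.54), which overlapped, and far below them postnatal day 1 (0.341 ± 0.304; CPM, n = 3).

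The level of 2210407C18Rik varied most. It was at 3.56, 1.81 and 2.15 CPM at 14 weeks, at 10.2, 11.7 and 3.08 CPM at 1 year and at 6.05, 8.43 and 21.8 CPM at 1.5 years. The heart of 4 weeks with the least, replicate 2, was below the highest heart of 14 weeks, and the SD was 74.1% of the mean at 4 weeks and 70.2% at 1.5 years, against 20.9% and 26.2% for Ces1d. The group means were 14.2 ± 10.5 CPM at 4 weeks, 12.1 ± 8.50 CPM at 1.5 years, 8.31 ± 4.60 CPM at 1 year and 2.504 ± 0.927 CPM at 14 weeks (n = 3), and each of these groups overlapped its neighbour in that order.

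The ages that had no part in the choice of the genes were compared by edgeR (quasi-likelihood test, Benjamini-Hochberg adjustment across the 17995 genes that passed the filter). From 14 weeks to 1.5 years, 1 of the 3 genes was called, upward, beside 12.8% of all genes in either direction and 4.91% upward. That gene was 2210407C18Rik, which rose by 2.21 on the log2 scale (SE 0.68; edgeR adjusted p = 0.0428), its 3 hearts of 1.5 years all above those of 14 weeks, where 31.4% of all genes did not overlap. For Ces1d the log2 fold change was -0.30 with an SE of 0.24 (edgeR adjusted p = 0.468), and for Hrasls 0.12 with an SE of 0.44 (edgeR adjusted p = 0.927). The call for 2210407C18Rik was lost without any single heart of the 6 other than replicate 1 of 1.5 years, and without replicate 3 of 1.5 years the log2 fold change was 1.47 (edgeR adjusted p = 0.210). The hearts of these ages also differed in sex-linked genes: Xist, which marks an inactive X chromosome, was between 0.138 and 0.451 CPM at 14 weeks and between 39.9 and 146 CPM at 1.5 years, whereas Ddx3y, from the Y chromosome, was between 39.1 and 57.2 CPM at 14 weeks and between 0.0417 and 0.454 CPM at 1.5 years. Age and sex cannot be told apart in this comparison.

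Of the 3 genes, 0 were called from 14 weeks to 1 year, beside 0.972% of all genes. By unadjusted p under 0.05 it was 1, 2210407C18Rik, at a log2 ratio of 1.71 (SE 0.67; edgeR adjusted p = 0.253), and with DESeq2 it was 0. Ces1d was at -0.11 (SE 0.24; edgeR adjusted p = 0.933) and Hrasls at -0.46 (SE 0.44; edgeR adjusted p = 0.751). In the hearts of 1 year Xist was at most 0.641 CPM and Ddx3y at least 77.2 CPM. From 1 year to 1.5 years 0 of 3 genes were called, beside 2.66% of all genes, and 0 passed an unadjusted p under 0.05 in edgeR or the adjusted p of DESeq2. The largest of these differences was that of Hrasls, at 0.57 on the log2 scale (SE 0.44; edgeR adjusted p = 0.481). For 2210407C18Rik it was 0.50 (SE 0.65, adjusted p = 0.724 by edgeR), and without replicate 3 of 1.5 years it turned to -0.23. With Xist at least 39.9 CPM and Ddx3y at most 0.454 CPM in the hearts of 1.5 years, age and sex cannot be told apart in this comparison.

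In the sorted fibroblasts Ces1d rose between postnatal day 1 and 4 weeks, in samples that the choice of the genes had not used. It was at 0.795, 0.0900 and 0.0387 CPM on postnatal day 1, which is 74, 7 and 3 counts, and at 38.2, 22.7 and 17.8 CPM at 4 weeks. The ages did not overlap, as for 28.3% of all genes, and the log2 fold change was 6.35 (SE 0.67; edgeR adjusted p = 3.1e-05). Of the 18759 genes tested 15.5% were called between these ages and 9.28% were called higher, and of these 1740 higher genes 204 had a larger log2 fold change than Ces1d. The sample with the most Ces1d on postnatal day 1, replicate 1, held the estimate down: without it the log2 fold change was 8.65 (edgeR adjusted p = 3.61e-07).

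Ces1d was measured in every fibroblast sample of 14 weeks and later. It was at 66.3 and 76.1 CPM at 14 weeks, at 52.7 and 58.1 CPM at 1 year and at 217 and 227 CPM at 1.5 years. Both samples of 1.5 years were above every sample of whole heart. The order of the fibroblast ages by mean was 1.5 years (222 ± 6.87, n = 2), 14 weeks (71.2 ± 6.93, n = 2), 1 year (55.4 ± 3.82, n = 2), 4 weeks (26.2 ± 10.7, n = 3) and postnatal day 1 (0.308 ± 0.422 CPM, n = 3), and no neighbours in it overlapped. With groups this small that holds for many genes: 51.1% of all genes did not overlap between 1.5 years and 14 weeks, 53% between 14 weeks and 1 year and 32.7% between 1 year and 4 weeks.

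The tests at these ages, with 2 samples in each later group, did not pass the threshold in the fit of all fibroblasts. From 4 weeks to 14 weeks the log2 fold change of Ces1d was 1.45 (SE 0.55, adjusted p = 0.211 by edgeR, unadjusted p = 0.0206), where 3.87% of all genes were called and 34.4% did not overlap. From 14 weeks to 1.5 years it was 1.61 (SE 0.62, adjusted p = 0.253 by edgeR, unadjusted p = 0.0234), where 2.72% were called. In fits with only the groups compared, the adjusted p values by edgeR were 0.0459 and 0.00392. As in whole heart, sex-linked genes set the fibroblasts of 1.5 years apart, with Xist between 370.4 and 382 CPM and Ddx3y at most 0.0724 CPM, against at most 0.0609 CPM and at least 63.6 CPM at 14 weeks. At 4 weeks Xist was between 328.6 and 518 CPM and Ddx3y between 21.5 and 42.7 CPM, so that the fibroblasts of 4 and 14 weeks also differed in these genes. Age and sex cannot be told apart in either comparison.

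The other two genes were at or near the limit of detection in fibroblasts. Hrasls had 1, 2 and 4 counts on postnatal day 1, 0, 0 and 1 at 4 weeks, 0 and 17 at 14 weeks, and 0 in all samples of 1 year and 1.5 years. The counts of 2210407C18Rik were 1, 0 and 0 on postnatal day 1, 0 and 12 at 1 year, and 0 in all 7 samples of the other ages. A count of 0 allows a level of up to 3 counts, between 0.0322 and 0.0441 CPM in these libraries, and this covers counting error only. Neither gene passed the filter on low counts in the fit of fibroblasts, which 1 of the 3 genes passed.

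**Figure D2:**
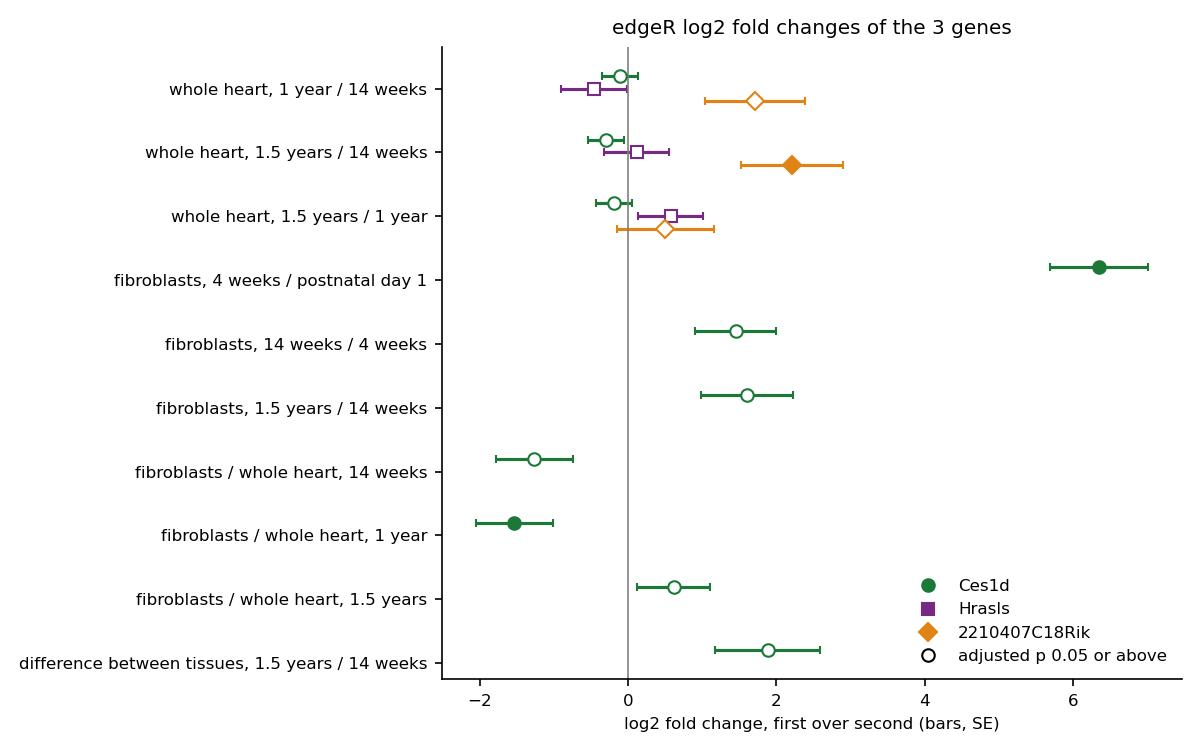
Log2 fold changes by edgeR with SE between ages, in samples that had no part in the choice of the genes, and for Ces1d between the tissues. Filled symbols passed an adjusted p of 0.05. The rise of Ces1d in fibroblasts after birth, 6.35, stands far to the right of all other values, and the only filled symbol in whole heart is that of 2210407C18Rik at 1.5 years against 14 weeks.

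The fibroblasts were then compared with whole heart at the ages from 14 weeks on, in 1 fit of all 27 samples over 20650 genes, which all 3 genes passed. The study describes the fibroblasts as taken from the hearts it sequenced and also as sets from different hearts, so samples of the tissues may share animals, which this fit treats as independent. Hrasls and 2210407C18Rik, which did not pass the filter in the fit of fibroblasts, passed it here through the hearts. Their difference between the tissues is therefore described and not tested. Hrasls was lower in fibroblasts at 14 weeks and at both ages after it. By group means it was 315-fold higher in whole heart at 14 weeks, at least 585-fold higher at 1 year and at least 874-fold higher at 1.5 years. The 14-week ratio rests on the 17 counts of replicate 6, since replicate 4 had 0. The level of 2210407C18Rik was lower in fibroblasts at the same ages. It was at least 62.1-fold higher in whole heart at 14 weeks, 96.6-fold at 1 year and at least 287-fold at 1.5 years. At 1 year the ratio rests on the 12 counts of replicate 5.

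Ces1d was called lower in fibroblasts than in whole heart at 1 year, with a log2 difference of -1.53 (SE 0.52, adjusted p = 0.0262 by edgeR). The difference was -1.27 at 14 weeks (SE 0.52, adjusted p = 0.0628 by edgeR) and 0.62 at 1.5 years (SE 0.49, adjusted p = 0.338 by edgeR), and neither passed the test. The samples of the tissues did not overlap at any of these ages, as for 62.4%, 59.9% and 56.3% of all genes. In the order of these ages, 34.8%, 32.4% and 38.9% of all genes were called. The call at 1 year was lost without replicate 1 or 2 of the hearts (edgeR adjusted p = 0.0753 and 0.0614) and without replicate 4 or 5 of the fibroblasts (0.158 and 0.120). The change of Ces1d from 14 weeks to 1.5 years differed between the tissues by 1.88 on the log2 scale (SE 0.71), which did not pass the test of the difference itself (adjusted p = 0.186 by edgeR, unadjusted p = 0.0143), beside 2.71% of all genes that did. Sex-linked genes differed between these ages in both tissues, so age and sex cannot be told apart here either.

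Markers of other cell types were set beside the Ces1d of the sorted fibroblasts. The mean level of Ces1d in fibroblasts was 26.9% of that in whole heart on postnatal day 1 and 27.8% at 4 weeks. It was 41.6% at 14 weeks, 34.5% at 1 year and 153% in the oldest samples, those of 1.5 years. The summed cardiomyocyte markers, of which none of the 8 was at the limit of detection, were at 1.38%, 0.119%, 0.122%, 0.0364% and 0.0765% at the same ages. In CPM they were between 631 and 690.2 on postnatal day 1 and between 60.1 and 165 at 4 weeks. Of the 8, 5 were called lower between these ages and 0 higher, beside 1163 lower and 1740 higher of all 18759 genes tested. Macrophage markers were between 111 and 183 CPM on postnatal day 1 and between 262 and 452 CPM at 4 weeks, with 4 of 6 called higher (median log2 fold change 1.54), and between 63.5 and 73.3 CPM at 1.5 years. Summed endothelial markers were between 326 and 489 CPM on postnatal day 1 and between 475.5 and 1415 CPM at 4 weeks (median log2 fold change 1.07), and 1 of the 6 was called higher, Tek, which encodes an angiopoietin receptor. At 1.5 years they were between 259.6 and 977 CPM. The part of these cells in the Ces1d of the sorted samples was not tested. The fat cell markers summed to at most 2.71 CPM in any fibroblast sample, with Adipoq at most 1.32 CPM, and the liver cell marker Apoa2 was at most 1.81 CPM.

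**Figure D3:**
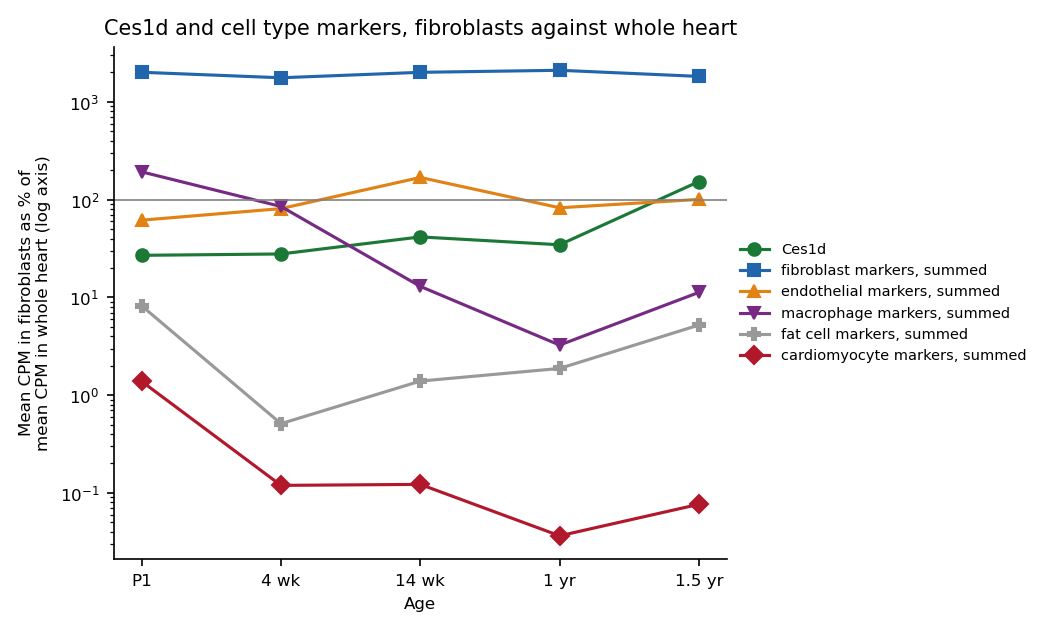
Mean CPM in sorted fibroblasts as a percentage of the mean in whole heart at each age, on a log axis, for Ces1d and for summed markers of 5 cell types, with a line at 100%. Ces1d runs between 26.9% and 41.6% up to 1 year and reaches 153% at 1.5 years, while the cardiomyocyte markers stay at or under 1.38%. Endothelial markers run between 61.7% and 169%, and macrophage markers between 3.25% and 192%.

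Between genes, levels were compared per kilobase of exon. In whole heart at 14 weeks Ces1d was at 72.3 ± 4.44, Hrasls at 9.94 ± 1.19 and 2210407C18Rik at 1.79 ± 0.663 CPM per kilobase (mean ± SD, n = 3). At 4 weeks the values were 39.8 ± 8.31, 7.05 ± 1.99 and 10.1 ± 7.49. Ces1d was thus the highest of the 3 at both ages, while Hrasls and 2210407C18Rik overlapped at 4 weeks and not at 14 weeks.

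Over the 15 hearts the log2 levels of the 3 genes went together, with Pearson's r of 0.94 for Ces1d and Hrasls, 0.91 for Ces1d and 2210407C18Rik and 0.91 for Hrasls and 2210407C18Rik. These values follow from the low hearts of postnatal day 1, which the choice of the genes fixed. Over the 9 hearts of 14 weeks and later r was -0.27, -0.01 and -0.10. Over all hearts none of the 3 was among the 5 closest to another, and Hrasls came at rank 232 for Ces1d among the 13384 genes searched.

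The genes whose course over the 15 hearts was most like that of each member were found by Pearson's r of log2 CPM among genes with a mean of at least 1 CPM. The low hearts of postnatal day 1 entered these r values too, so genes that rise after birth are favoured. For Ces1d they were Rpl3l, a ribosomal protein of striated muscle (r = 0.995), Art1, a mono-ADP-ribosyltransferase (0.993), Sgca, the alpha subunit of the sarcoglycan complex (0.992), Trim54, a ubiquitin ligase of the sarcomere (0.991), and Slco3a1, an organic anion transporter (0.989). Rpl3l went from a mean of 6.85 CPM on postnatal day 1 to 269 CPM at 4 weeks and 459 CPM at 1.5 years. For Hrasls they were Ldhd, the mitochondrial D-lactate dehydrogenase (0.981), Lilra5, an immunoglobulin-like receptor (0.977), Hfe2, which encodes hemojuvelin (0.975), Alpl, the tissue-nonspecific alkaline phosphatase (0.975), and Pde8b, a cyclic AMP phosphodiesterase (0.974). Ldhd went from 2.13 CPM on postnatal day 1 to 37.2 CPM at 4 weeks and 73.6 CPM at 14 weeks.

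For 2210407C18Rik the closest were Csf1r, the macrophage colony-stimulating factor receptor (r = 0.964), Tagap, a GTPase activating protein of lymphocytes (0.962), Pi16 (0.960), Cyp4b1, a cytochrome P450 (0.957), and the long noncoding RNA Gm43672 (0.955). Like 2210407C18Rik, all 5 had less at 14 weeks than at 4 weeks by mean, a likeness that their choice by r over these hearts favours. Csf1r was at 75.6 CPM at 4 weeks and 55.1 CPM at 14 weeks, after 14.3 CPM on postnatal day 1. Csf1r is also 1 of the 6 macrophage markers, whose summed level was between 299.7 and 341.7 CPM at 14 weeks and between 519 and 682 CPM at 1.5 years, and their part in the rise of 2210407C18Rik between these ages was not tested. In fibroblasts of postnatal day 1 and 4 weeks, with macrophage markers between 111 and 452 CPM, 2210407C18Rik had at most 1 count. Which cells of the heart hold its RNA was not tested. The points of these correlations share libraries, and no p value is given for them.

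**Figure D4:**
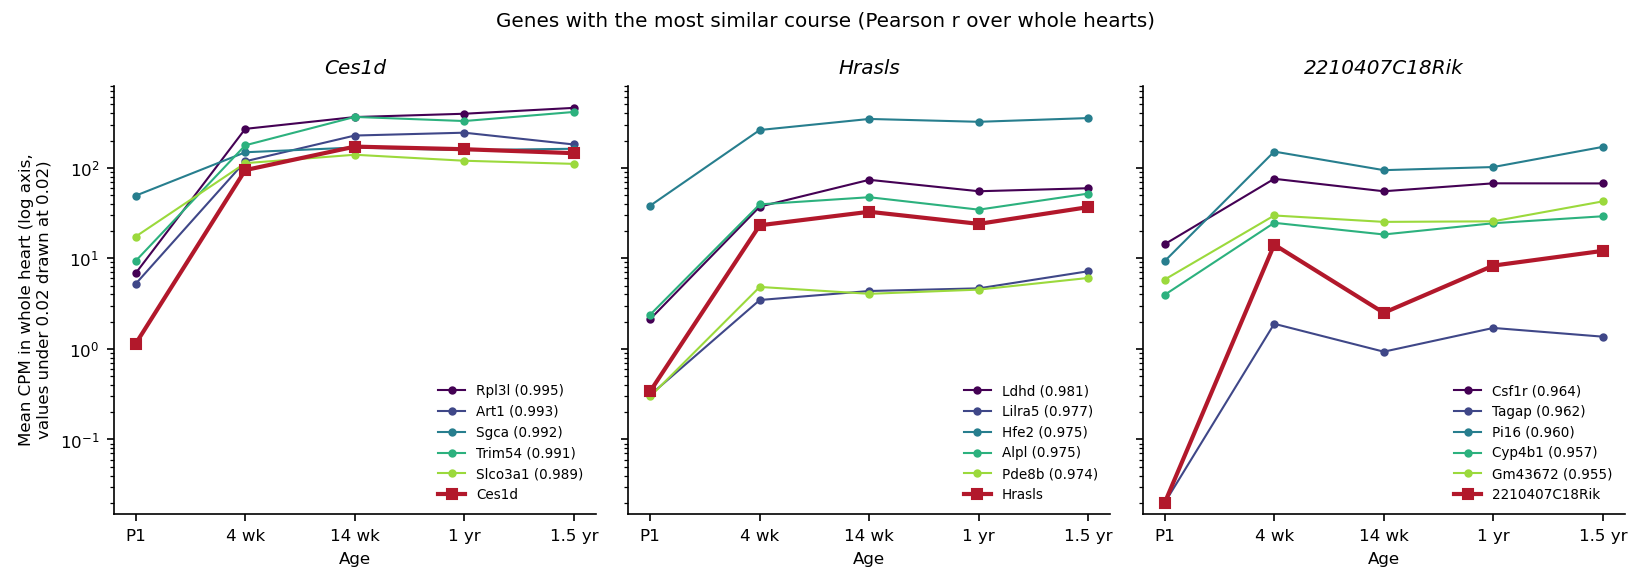
Mean CPM in whole heart by age on a log axis for Ces1d, Hrasls and 2210407C18Rik (thick red lines) and for the 5 genes with the highest Pearson's r to each over 15 hearts, with r in the legend. All lines step up between postnatal day 1 and 4 weeks, and in the panel of 2210407C18Rik all lines are lower at 14 weeks than at 4 weeks. The choice by r over these same hearts favours such likeness.

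The relatives and pathways of the 3 genes were read from gene lists in whole heart from postnatal day 1 to 4 weeks, where the median over all genes was -0.09 on the log2 scale. No other carboxylesterase was called. Of 18 listed 5 have a row in the files, and the others were not analysed here. Ces1g had 0 counts in every heart, and Ces1a and Ces2b at most 17. The 2 that were tested, Ces2e and Ces2g, were not called, and Ces2g was at 3.06 ± 1.53 CPM on postnatal day 1 and 2.21 ± 1.02 CPM at 4 weeks (log2 fold change -0.45, SE 0.53, adjusted p = 0.640 by edgeR).

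Genes of lipid droplets and lipolysis were called higher for 9 of 13, none was called lower, and their median log2 fold change was 0.97, where 12.1% of all genes were called higher and 6.1% lower. Dgat2, which makes triacylglycerol, rose from 73.9 ± 21.1 to 372.3 ± 74.7 CPM (log2 fold change 2.35, adjusted p = 1.59e-07 by edgeR). Lpl, the lipoprotein lipase, had the highest level of the list and rose from 1012 ± 324 to 3967 ± 902 CPM (1.99, adjusted p = 1.76e-05 by edgeR). Plin5, a lipid droplet coat protein of oxidative tissues, rose from 44.3 ± 10.1 to 130.1 ± 23.0 CPM (1.58), and Pnpla2, the adipose triglyceride lipase, from 243 ± 135 to 466 ± 123 CPM (0.97, adjusted p = 0.0178 by edgeR).

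The list around Hrasls was mixed. Among the other PLAAT and N-acylethanolamine genes 2 of 6 were called higher and 1 lower, with a median of -0.16. Pla2g16, a second member of the PLAAT family, rose from 68.6 ± 5.68 to 122.6 ± 19.1 CPM (0.86, adjusted p = 0.000290 by edgeR), and Naaa, an acid amidase that breaks down N-acylethanolamines, rose from 6.45 ± 0.847 to 16.3 ± 1.38 CPM (1.36, adjusted p = 0.00578). Abhd4, a lipase of the same route, fell from 119 ± 27.4 to 61.4 ± 18.0 CPM (-0.93, adjusted p = 0.00327). Of 9 genes of cardiolipin synthesis and remodelling 1 was called higher and 0 lower by edgeR, with a median of 0.07, and 1 of 9 is near the share of all genes. The gene was Cds2, a CDP-diacylglycerol synthase (0.62, adjusted p = 0.0154 by edgeR), while tafazzin (Taz) was at 35.8 ± 2.99 and 35.1 ± 2.70 CPM.

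Among 14 tested hormone and nuclear receptor genes of postnatal maturation 5 were called higher and 1 lower, with a median of 0.41. The retinoid X receptor gene Rxrg had the largest rise, from 2.24 ± 1.06 to 71.0 ± 22.0 CPM (log2 fold change 5.00, adjusted p = 1.63e-08 by edgeR). The thyroid hormone receptor gene Thrb rose from 2.31 ± 1.02 to 17.1 ± 9.00 CPM (2.92), and the other thyroid hormone receptor gene, Thra, fell from 206 ± 6.08 to 139 ± 9.75 CPM (-0.55, adjusted p = 0.0225 by edgeR). Esrra, the estrogen-related receptor alpha, had the highest level of the list at 4 weeks and rose from 123 ± 4.21 to 213 ± 38.1 CPM (0.81). With library size as the only scaling the median of all genes moved to -0.60, and the split of all calls from 2179 higher and 1097 lower to 980 and 3795. The lipid droplet list then had 6 higher and 1 lower, the PLAAT list 0 and 1, the cardiolipin list 0 and 2, and the hormone list 3 and 2.

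**Figure D5:**
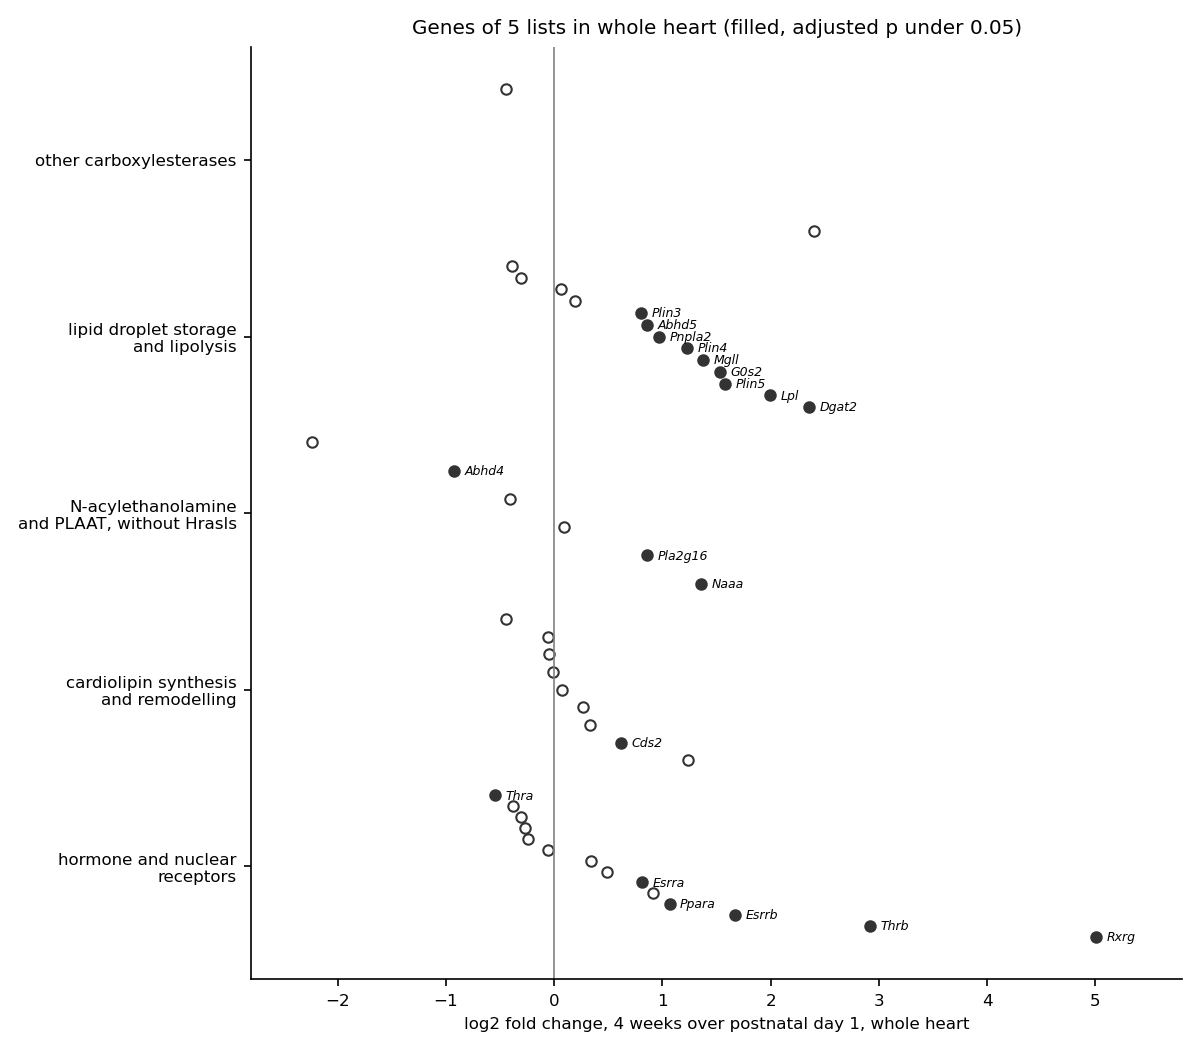
Log2 fold changes by edgeR from postnatal day 1 to 4 weeks in whole heart for the genes of 5 lists, without Ces1d and Hrasls, with filled points for an adjusted p under 0.05. The 9 filled points of the lipid droplet list all lie above 0, the 2 tested carboxylesterases are not filled, and Rxrg lies farthest to the right.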

How the data were processed

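RNA-Seq was performed on polyA RNA of 15 whole hearts and 12 samples of PDGFRα-sorted cardiac fibroblasts (single-end reads of 65 bases). The authors mapped the reads to mm10 with STAR 2.5.3a and deposited raw counts of uniquely mapped reads per gene, without normalization. The strand setting and the gene annotation are not given in the sources used here, so reads of an overlapping antisense gene could not be told apart. The values were checked to be whole and their sums to differ between samples, and 0 of 24 pairs of samples of the same group were identical. Per the study's methods there were 3 animals and 3 fibroblast sets per age, the sets from different hearts, whereas the labels give 2 sets at the 3 later ages. Hearts and fibroblasts may share animals, and the labels do not link them.

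The 3 genes, the lists and the motifs were chosen with earlier results of these data known. Counts were tested with edgeR 4.0.16 in R 4.3.3 (filterByExpr, TMM, quasi-likelihood F test at an adjusted p of 0.05). Each tissue was fitted alone with its ages as groups, and both tissues together for comparisons between them. Each SE is the size of a log2 fold change over the square root of its F statistic. The common biological variation was 71.8% in whole hearts and 87.9% in fibroblasts. Log2 levels had a prior count of 2. A group with at most 3 counts in every sample was taken at that floor. The other genes named are the 5 most alike in course to each member, the next 3 in rank under the same rule, the neighbours, and up to 4 per list with the highest level or the largest change. Same-numbered hearts did not deviate together (correlations of deviations from -0.06 to 0.10 over 30 pairs), so the numbers pair no samples. Alternatives were DESeq2 1.42.0, median-of-ratios factors, library size only, no filter, at least 10 counts in every sample, a fit of only the groups compared, a block by replicate number, and leaving out single replicates. The tests were tested on simulated data first. 1 gene of the hormone and nuclear receptor list was left out and is not reported here. Flow cytometry, collagen and DNA methylation were not used here.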

Additional observations from a re-analysis of the deposited data

How the results depend on the processing

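Of 22 log2 fold changes of the 3 genes, 14 kept direction and call (adjusted p of 0.05) under every alternative that gave a value. Among them was the rise of Ces1d in fibroblasts after birth (5.86 to 8.65 without single replicates). The lower levels of Hrasls and 2210407C18Rik in fibroblasts were also among them. These genes passed the filter through the hearts, so the stability of those calls is no support. The rest of the 14 were differences that no setting called. The rise of Ces1d in fibroblasts after birth was thus the only tested call that every alternative kept. The rise of 2210407C18Rik from 14 weeks to 1.5 years in whole heart was 2.12 with the replicate number as a block (edgeR adjusted p = 0.0677) and between 1.47 and 2.55 without single hearts, and the block changed no other call. Its difference between 1 year and 1.5 years ran from -0.23 to 0.83 without single hearts. With only the groups compared in the fit, 5 results passed the threshold that had not: 2210407C18Rik from 14 weeks to 1 year (1.72, edgeR adjusted p = 0.0469), Ces1d in fibroblasts from 4 to 14 weeks (1.47) and from 14 weeks to 1.5 years (1.60), the difference between the tissues (1.89, edgeR adjusted p = 0.0122) and Ces1d in fibroblasts against whole heart at 14 weeks (-1.38). The last also passed with DESeq2 (-1.34) and with median-of-ratios factors (-1.34). At 1 year it did not pass with library size only (-1.16, edgeR adjusted p = 0.0929) and ran from -1.60 to -1.38 without single samples. Library size alone changed the split of all calls in whole heart from 14 weeks to 1.5 years from 883 higher and 1415 lower to 1288 and 751, and the counts of lists after birth to 1 lower gene in the lipid droplet list, 0 higher in the PLAAT list, 0 higher and 2 lower in the cardiolipin list and 3 higher and 2 lower in the hormone list. The causes were not tested. With at least 10 counts required in every sample, Hrasls and 2210407C18Rik were not tested in any fit and Ces1d was tested in whole heart alone. Groups of 2 or 3 samples limit what can be called.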
